A study of Mus musculus with 11 samples.

Results

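CC chemokine ligands are described here in the hearts of mouse embryos that lack the phosphodiesterase Pde2A. Of the 55487 genes in the count files, 9 were chosen by symbol: Ccl2, Ccl3, Ccl4, Ccl5, Ccl6, Ccl7, Ccl9, Ccl12 and Ccl24. Whole hearts were taken at E14.5 from 5 embryos of the Pde2A-/- and 6 of the Pde2A+/+ genotype, and each gave 1 RNA-seq library. The embryos, of both sexes, came from heterozygous matings of the B6;129P2-Pde2A<tm1Dgen> line, in which the allele is inherited by every cell, and the labels name no treatment for either genotype. All 9 genes reached the minimum of 10 counts over the 11 hearts, as did 24177 genes in all.

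CC chemokines are small secreted proteins that carry a pair of adjacent cysteines near their amino terminus and act on G-protein-coupled receptors of leukocytes. Ccl2, Ccl7 and Ccl12 act on Ccr2 and draw monocytes, Ccl3, Ccl4 and Ccl5 draw monocytes and T cells, Ccl6 and Ccl9 act on Ccr1, and Ccl24 acts on Ccr3 of eosinophils. In the fetal heart, resident macrophages from the yolk sac and later from fetal monocytes lie among the muscle cells and along the vessels, and such macrophages are a known source of several of these ligands.

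The genes lay in 2 groups on chromosome 11 of GRCm38, with Ccl24 (ENSMUSG00000004814) alone on chromosome 5 from 135569937 to 135573049 on the minus strand. The first group spanned 67.8 kb of the plus strand and held Ccl2 (ENSMUSG00000035385, 82035571 to 82037453), Ccl7 (ENSMUSG00000035373, 82045712 to 82047525) and Ccl12 (ENSMUSG00000035352, 82101845 to 82103400), with Ccl11 between Ccl7 and Ccl12. The second group spanned 139 kb and held, on the minus strand, Ccl5 (ENSMUSG00000035042, 83525778 to 83530518), Ccl9 (ENSMUSG00000019122, 83572919 to 83578636), Ccl6 (ENSMUSG00000018927, 83587882 to 83593087) and Ccl3 (ENSMUSG00000000982, 83647844 to 83649355), and on the plus strand Ccl4 (ENSMUSG00000018930, 83662584 to 83664683). No exon of the 9 genes overlapped an exon of another annotated gene on either strand. The 11 hearts together had between 0 and 17 reads on the opposite strand of each of them.

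The stretch of coding sequence that gives the family its name is shown for 5 genes that lie beside another of the ligands, because the levels of such neighbours are compared below. Each line is 36 bases of the longest coding sequence in GENCODE M21, 5′ to 3′, and the capitals mark the codons of the adjacent cysteines.
Ccl2, codons 34 and 35 in capitals: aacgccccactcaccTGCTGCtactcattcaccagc
Ccl7, codons 33 and 34 in capitals: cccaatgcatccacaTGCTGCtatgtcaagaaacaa
Ccl4, codons 34 and 35 in capitals: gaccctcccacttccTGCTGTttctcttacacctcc
Ccl6, codons 50 and 51 in capitals: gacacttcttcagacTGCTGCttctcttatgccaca
Ccl9, codons 57 and 58 in capitals: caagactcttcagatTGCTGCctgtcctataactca
The cysteine codons of these 5 genes were the same 6 bases except in Ccl4, and the bases around them differed. Over the whole coding sequence, the identity was 72.4% of 290 aligned bases for Ccl2 and Ccl7, 71.4% of 273 for Ccl3 and Ccl4, and 70.6% of 344 for Ccl6 and Ccl9. These were the 3 highest values among the 36 pairs, whose median was 65.8%. Over the coding sequence and 3′ UTR, the longest run of identical bases that any pair shared was 25 bases, in Ccl6 and Ccl9. It was 11 in Ccl2 and Ccl7 and 9 in Ccl3 and Ccl4.

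The reads on genes numbered from 35865537 to 42835382 per library. Pde2a itself had 0 to 2 counts in each heart and 7 in all, in hearts of both genotypes. These counts could therefore not check the genotype labels. Reads that fall on several genes are in no count, so the low values do not show that Pde2a was absent from Pde2A+/+ hearts. Whether such reads lowered the Pde2a counts was not tested. The authors list Pde2a among the phosphodiesterases expressed in the heart. Pde2A+/+ replicate 7 stood apart by markers of T and NK cells, whose summed level was 111 CPM there (CPM is the read count of a gene set against the TMM-normalized total of its library) and 2.93 to 7.05 CPM in the other 10 hearts, and by markers of thymus epithelium, at 238 CPM against 29.5 to 56.6 CPM. B cell markers summed to 33.8 CPM in that replicate and to 0.658 to 1.28 CPM in the other hearts. Lung epithelium markers summed to 58.2 and 61.0 CPM in Pde2A+/+ replicates 7 and 11, and to 16.8 to 25.5 CPM in the other hearts. Liver markers summed to 39.8 to 118 CPM in Pde2A-/- replicate D and Pde2A+/+ replicates 11, E and H, and to 3.64 to 7.49 CPM in the other hearts. The summed level of 8 cardiomyocyte markers, 30872 to 42021 CPM over all hearts, overlapped between the genotypes.

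Ccl2, Ccl7, Ccl12, Ccl4 and Ccl9 rose in the Pde2A-/- hearts, between 2.22-fold for Ccl9 and 5.06-fold for Ccl2. Ccl6 rose by less, 1.80-fold, and Ccl3, Ccl5 and Ccl24 did not pass the test. In numbers, 5 of the 9 genes were called higher (adjusted p below 0.05, change of 2-fold or more), against 2.21% of all genes tested, and 0 were called lower, against 0.372%. At an adjusted p under 0.05 alone, 6 of 9 were higher, against 8.93% of all genes. Every Pde2A-/- heart lay above every Pde2A+/+ heart for 5 of 9 genes, against 5.38% of all genes in that direction and 8.49% in either. The median log2 fold change of the 9 was 1.58, beside -0.02 over all genes tested. That median is the value of Ccl3, which did not pass and was at 0.47 without Pde2A-/- replicate D. Replicates are named by letters or by numbers, for a reason the labels do not give. Within the number-named hearts, 2 against 4, the same 5 genes passed, with adjusted p from 0.000592 to 0.0280. Within the letter-named hearts, 3 against 2, Ccl2 and Ccl7 passed, and Ccl12, Ccl4 and Ccl9 did not, at log2 fold changes of 1.91, 1.78 and 0.88. In such bulk samples, more cells of a type and more RNA per cell cannot be told apart.

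**Figure D1:**
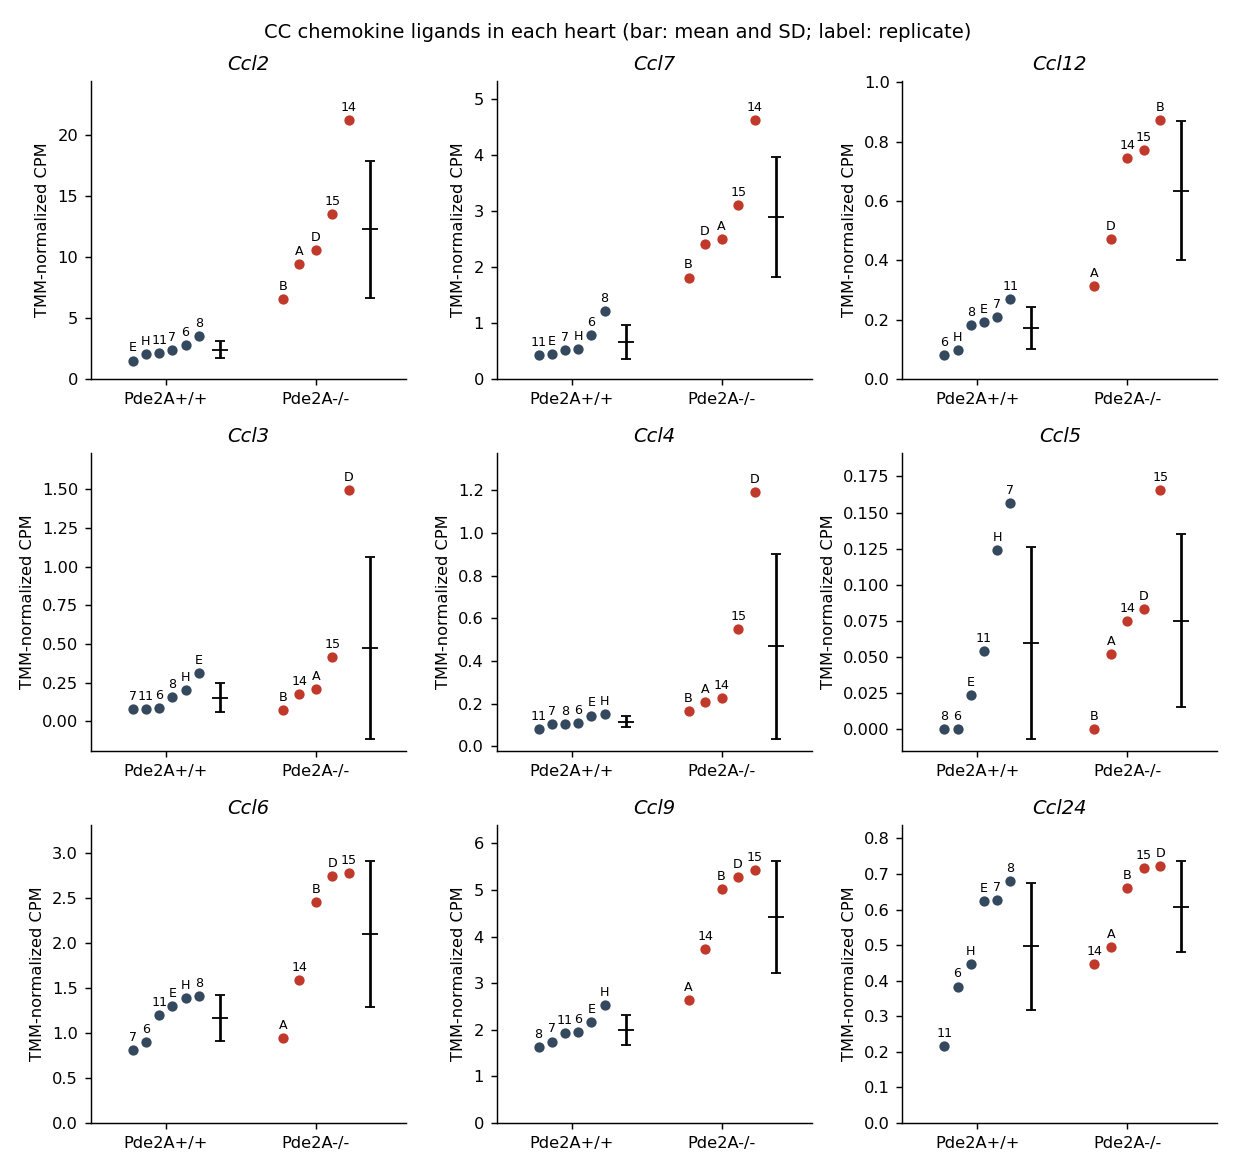
TMM-normalized CPM of the 9 ligands (y axis, from 0 or, where the error bar passes below it, from below 0) in each of 6 Pde2A+/+ and 5 Pde2A-/- hearts, with the replicate name at each point and the mean and SD as a bar. The genotypes do not overlap for Ccl2, Ccl7, Ccl12, Ccl4 and Ccl9, and Ccl3 and Ccl4 have their highest value in Pde2A-/- replicate D.

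Ccl2, the main attractant of Ccr2-bearing monocytes, had the highest level per exon length and the largest log2 fold change of the 9 genes. It measured 21.2, 13.5, 10.6, 9.40 and 6.59 CPM in Pde2A-/- replicates 14, 15, D, A and B. In Pde2A+/+ replicates 8, 6, 7, 11, H and E it measured 3.55, 2.80, 2.40, 2.17, 2.09 and 1.54 CPM. The lowest Pde2A-/- heart thus lay above the highest Pde2A+/+ heart, and the hearts without Pde2A spread 3.22-fold among themselves. Ccl2 thus rose by a log2 fold change of 2.34 (SE 0.28, adjusted p = 0.000148).

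Ccl7, a monocyte attractant whose gene lies 8.26 kb downstream of Ccl2, followed the same order at the top. Its levels were 4.63, 3.11, 2.51, 2.41 and 1.82 CPM in Pde2A-/- replicates 14, 15, A, D and B. They were 1.23, 0.795, 0.547, 0.522, 0.456 and 0.435 CPM in Pde2A+/+ replicates 8, 6, H, 7, E and 11. Replicate 14 was again the highest and replicate B the lowest of the Pde2A-/- hearts, replicate 8 the highest of the Pde2A+/+ hearts, and the genotypes did not overlap. This gave a log2 fold change of 2.12 (SE 0.30, adjusted p = 0.000643).

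Ccl12, the third Ccr2 ligand of the cluster, was measured from few reads, 12 to 37 per Pde2A-/- heart and 3 to 10 per Pde2A+/+ heart. It stood at 0.873, 0.771, 0.747, 0.472 and 0.313 CPM in Pde2A-/- replicates B, 15, 14, D and A. The Pde2A+/+ replicates 11, 7, E, 8, H and 6 gave 0.272, 0.209, 0.192, 0.183, 0.0994 and 0.0822 CPM. The genotypes did not overlap, but the order of the hearts was not that of Ccl2, since replicate B, the lowest for Ccl2, was the highest for Ccl12. Its log2 fold change was 1.86 (SE 0.34, adjusted p = 0.00367).

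Ccl4, an attractant of monocytes and T cells, rose from a low level. Its counts were 7 to 43 per Pde2A-/- heart and 3 to 6 per Pde2A+/+ heart. In CPM these were 1.19, 0.551, 0.224, 0.209 and 0.165 in Pde2A-/- replicates D, 15, 14, A and B, against 0.149, 0.144, 0.110, 0.105, 0.104 and 0.0815 in Pde2A+/+ replicates H, E, 6, 8, 7 and 11. All Pde2A-/- hearts were above all Pde2A+/+ hearts, the nearest values being 0.165 and 0.149 CPM, and replicates D and 15 lay well above the other Pde2A-/- hearts. Its log2 fold change of 1.97 (SE 0.51, adjusted p = 0.0236) was 1.27 without replicate D, where the call was lost (adjusted p = 0.0642). It also missed the threshold without Pde2A-/- replicate 15 (adjusted p = 0.0559) and without Pde2A+/+ replicate 6 (adjusted p = 0.0511).

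Ccl3, which acts on Ccr1, did not pass the test. It measured 1.5, 0.413, 0.209, 0.174 and 0.0708 CPM in Pde2A-/- replicates D, 15, A, 14 and B. In Pde2A+/+ replicates E, H, 8, 6, 11 and 7 the levels were 0.312, 0.199, 0.157, 0.0822, 0.0815 and 0.0782 CPM. Replicate D alone had 54 of the 123 counts of the gene, 2 of 5 Pde2A-/- hearts lay above every Pde2A+/+ heart, and replicate B lay below all of them. That last place came from library size only, since replicate B and Pde2A+/+ replicates 6, 11 and 7 had 3 counts each. Between genotypes the log2 fold change was 1.58 (SE 0.67, 95% interval 0.13 to 3.04, adjusted p = 0.131), and 0.47 without replicate D.

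Ccl5, a T cell attractant, was close to absent at this depth, with 0 to 6 counts per heart in both genotypes and 28 in all. Its highest values were 0.165 CPM in Pde2A-/- replicate 15 and 0.156 CPM in Pde2A+/+ replicate 7, the heart with the T cell markers. For Ccl5 the log2 fold change of 0.27 had a 95% interval from -1.52 to 2.06 (adjusted p = 0.869), so that a difference was not detectable at this depth. Its sign turned when Pde2A-/- replicate 15 was left out, at -0.21.

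Ccl9, a Ccr1 ligand of myeloid cells, rose with little spread among hearts. Its levels were 5.43, 5.27, 5.03, 3.73 and 2.64 CPM in Pde2A-/- replicates 15, D, B, 14 and A. They were 2.53, 2.16, 1.95, 1.93, 1.75 and 1.62 CPM in Pde2A+/+ replicates H, E, 6, 11, 7 and 8. The genotypes did not overlap, the nearest hearts being Pde2A-/- replicate A and Pde2A+/+ replicate H, and the SD within each genotype was 27.2% and 16.3% of its mean. The rise was 1.15 on the log2 scale (SE 0.19, adjusted p = 0.00195).

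Ccl6, the neighbour of Ccl9 and another Ccr1 ligand, passed the adjusted p but not the fold change of 2. It measured 2.78, 2.75, 2.45, 1.59 and 0.940 CPM in Pde2A-/- replicates 15, D, B, 14 and A. In Pde2A+/+ replicates 8, H, E, 11, 6 and 7 it measured 1.41, 1.39, 1.30, 1.2, 0.904 and 0.808 CPM. The first 4 Pde2A-/- hearts lay above all Pde2A+/+ hearts, and replicate A lay among them. On the log2 scale the change was 0.84 (SE 0.26, adjusted p = 0.0487). Leaving out 1 heart at a time, its adjusted p stayed below 0.05 in 1 of 11 fits and reached 0.133.

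Ccl24, the eotaxin on chromosome 5, overlapped between the genotypes. Its levels were 0.448 to 0.722 CPM in the Pde2A-/- hearts, with a median of 0.661, and 0.217 to 0.679 CPM in the Pde2A+/+ hearts, with a median of 0.536. A log2 fold change of 0.29 was fitted, with a 95% interval from -0.30 to 0.87 (SE 0.27, adjusted p = 0.526), so the interval held no rise as large as 2-fold. Of the 9 genes it had the smallest spread among Pde2A-/- hearts, 21.1% of the mean, against 45.5% for Ccl2 and 124% for Ccl3.

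**Figure D2:**
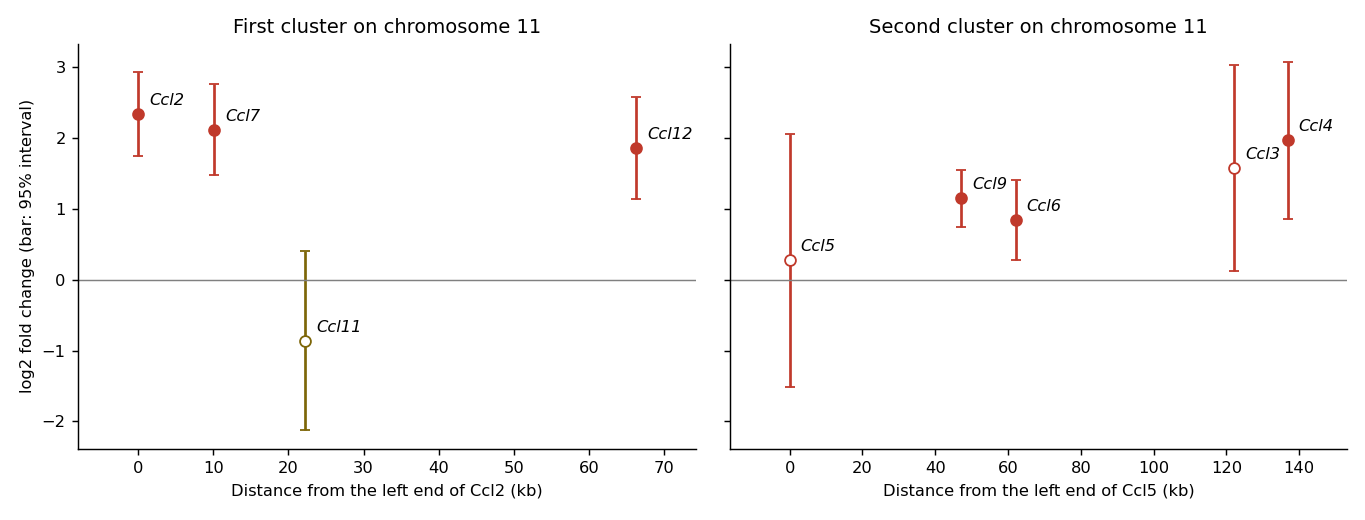
Log2 fold change of Pde2A-/- against Pde2A+/+ hearts (y axis, bars for the 95% interval) for the genes of both chromosome 11 groups by the distance in kb of their left end from that of the first gene; filled points passed an adjusted p of 0.05, and Ccl11 is drawn in another colour because it is not among the 9 genes. Ccl2, Ccl7 and Ccl12 lie between 1.86 and 2.34, while Ccl11 between them lies at -0.86.

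Levels were compared between genes as CPM per kb of annotated exon. In the Pde2A-/- hearts the mean level per kb was 10.8 ± 4.91 (SD, n = 5) for Ccl2, 3.62 ± 1.34 for Ccl7 and 1.45 ± 0.394 for Ccl9, and Ccl2 exceeded Ccl7, and Ccl7 exceeded Ccl9, in 5 of 5 hearts without overlap. Below them came Ccl12 at 1.18, Ccl6 at 1.17, Ccl4 at 0.71, Ccl3 at 0.618 and Ccl24 at 0.470, whose neighbours in this order overlapped, and Ccl5 was last at 0.0782, below Ccl24 in every heart. In the Pde2A+/+ hearts the level per kb was 2.13 ± 0.606 (SD, n = 6) for Ccl2, 0.83 for Ccl7, 0.653 for Ccl9, 0.651 for Ccl6, 0.383 for Ccl24, 0.322 for Ccl12, 0.198 for Ccl3, 0.175 for Ccl4 and 0.0623 for Ccl5. Ccl2 was above Ccl7 in 6 of 6 of these hearts, and every pair of neighbours in the order overlapped in range. Ccl2 made up 53.7% of the summed level per kb in Pde2A-/- hearts and 39.4% in Pde2A+/+ hearts. The place of Ccl3 above Ccl24 in the Pde2A-/- order came from replicate D, since Ccl3 exceeded Ccl24 in 1 of 5 hearts. The summed level of the 9 genes was 13.6 to 28.9 CPM per kb in Pde2A-/- hearts and 4.71 to 7.20 CPM per kb in Pde2A+/+ hearts. With the longest transcript as the length in place of all exons, Ccl6 and Ccl12 changed places in Pde2A-/- hearts, and Ccl6 and Ccl9 in Pde2A+/+ hearts.

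The hearts without Pde2A did not rank the same way for each ligand, and neighbouring genes ranked them alike in part. To describe this, the mean of its genotype was taken off each log2 CPM value and the remainders were correlated over the 11 hearts for all 36 pairs, a pattern that was noticed after the values had been seen. Points of the same heart share a library and its normalization, and no p is given. Ccl3 and Ccl4, 13.2 kb apart, had r = 0.93 and Spearman's rho = 0.85. Ccl2 and Ccl7, 8.26 kb apart, had r = 0.91 and rho = 0.80. Ccl6 and Ccl9, 9.25 kb apart, had r = 0.84 and rho = 0.68. The fourth pair, Ccl4 and Ccl9, was at 0.55, the median of the 36 pairs was 0.09 and the lowest, Ccl7 and Ccl9, was at -0.32. Over all 11 hearts the 3 highest correlations belonged to the 3 pairs with the shortest distances, which were also the 3 pairs most alike in coding sequence, an order that did not hold in fewer hearts.

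These correlations rested in part on single hearts. For each pair of genes, the pair of hearts farthest from the median of the first-named gene was left out (n = 9). This gave r of 0.87 for Ccl3 and Ccl4, 0.83 for Ccl2 and Ccl7 and 0.62 for Ccl6 and Ccl9. By the same rule, which here left out Pde2A-/- replicates B and D, r was 0.86 for Ccl4 and Ccl9, 83.9 kb apart. It was 0.77 for Ccl4 and Ccl6, 69.5 kb apart, without the same hearts. Under this rule the 3 nearest pairs were no longer the 3 highest. The hearts left out differed between pairs, and a choice by the second-named gene was not tried. Within the 6 Pde2A+/+ hearts alone, r was 0.81 for Ccl3 and Ccl4, 0.88 for Ccl2 and Ccl7 and 0.34 for Ccl6 and Ccl9. There Ccl4 had only 3 to 6 counts per heart. In those hearts Ccl6 and Ccl9 lay below Ccl4 and Ccl9, at 0.71, Ccl3 and Ccl6, also at 0.71, and Ccl3 and Ccl9, at 0.50. Other pairs above Ccl6 and Ccl9 there included genes on different chromosomes. Among these were Ccl4 and Ccl24, at 0.50, and Ccl3 and Ccl24, at 0.48. Ccl6 and Ccl9 were lowest among Pde2A-/- hearts in replicate A, at 0.940 and 2.64 CPM, and their r without that heart and Pde2A+/+ replicate 7 is the 0.62 given above. Ccl12, 64.4 kb from Ccl2 in the same group and 69.6% identical to it in coding sequence, had r = 0.02 with Ccl2 and -0.12 with Ccl7.

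**Figure D3:**
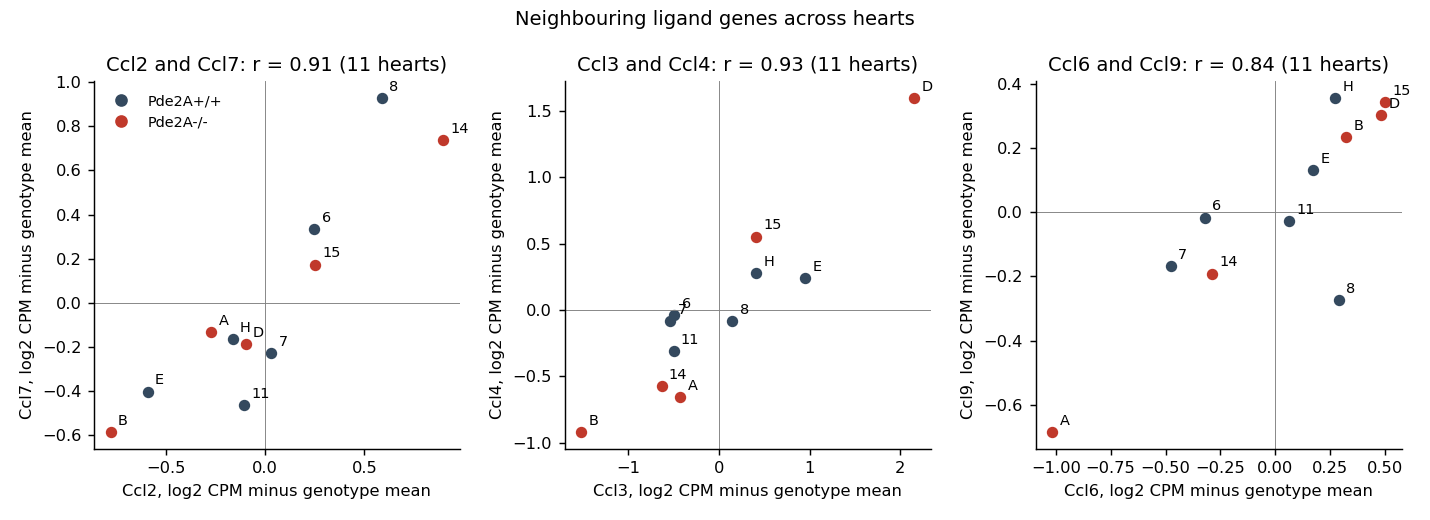
Log2 CPM minus the mean of its genotype for 3 pairs of neighbouring genes, 1 point per heart with its replicate name, coloured by genotype. The points rise together in each panel, with r of 0.91, 0.93 and 0.84 over 11 hearts, and Pde2A-/- replicate D lies far out for Ccl3 and Ccl4.

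The promoters of Ccl6 and Ccl9 are shown because these neighbours had r = 0.84 over the 11 hearts and both sequences were held. Within the 6 Pde2A+/+ hearts their r was 0.34, and a link between the levels and these promoters was not tested. Each is the minus strand of chromosome 11 from 250 bases before to 50 bases after the RefSeq transcription start in GRCm38.p6, 5′ to 3′, and the capitals mark runs of at least 10 bases that match in the alignment of the pair. RefSeq promoters were matched for 4 of the 9 genes, Ccl3, Ccl6, Ccl9 and Ccl12.
Ccl6, chr11:83593038-83593337: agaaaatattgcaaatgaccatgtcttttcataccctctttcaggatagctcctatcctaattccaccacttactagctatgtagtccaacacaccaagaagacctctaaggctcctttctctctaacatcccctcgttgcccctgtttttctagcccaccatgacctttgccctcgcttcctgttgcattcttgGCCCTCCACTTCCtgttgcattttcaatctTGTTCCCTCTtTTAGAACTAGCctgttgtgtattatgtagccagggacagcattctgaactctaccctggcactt
Ccl9, chr11:83578587-83578886: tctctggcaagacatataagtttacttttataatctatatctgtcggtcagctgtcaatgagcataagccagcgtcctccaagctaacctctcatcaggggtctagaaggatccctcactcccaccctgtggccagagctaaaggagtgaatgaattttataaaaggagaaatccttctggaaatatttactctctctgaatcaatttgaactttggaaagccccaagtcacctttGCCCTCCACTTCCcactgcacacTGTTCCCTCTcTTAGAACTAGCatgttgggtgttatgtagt
The pair shared 70.7% of 239 aligned bases, with 3 matching runs, the longest of 13 bases, all in the later part of the window. The other 5 pairs among the 4 promoters shared 57.0% to 65.7% and no run above 9 bases. Ahead of these runs the promoters differed in the motifs searched, on both strands. That of Ccl9 held 1 match to the kappa B letters, GGG and TTTCC with 2 bases between them, which 1.62% of 27025 promoters of this length hold, 1 match to the AP-1 letters TGANTCA, in 7.93% of promoters, and 3 matches to TATAAA, in 14.2%, of which a pair overlap on opposite strands. That of Ccl6 held none of these, that of Ccl12 held 1 TATAAA and that of Ccl3 held none. None of the 4 held the interferon response letters, GAAA repeated after 2 bases (3.49% of promoters), the GAS letters TTCNNNGAA (8.47%), the PU.1 letters GAGGAAG (13.5%), the cAMP response element TGACGTCA (1.88%) or the half-site TGACG (21.0%), which the full element contains. These are matches of letters only.

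The receptors of these ligands moved in both directions. Of 12 CC receptor genes, 10 were tested, 3 rose and 2 fell at an adjusted p under 0.05, beside 8.93% of all genes higher, 5.67% lower and 14.6% in either direction. Ccr1, which binds Ccl3, Ccl5, Ccl6, Ccl7 and Ccl9, measured 3.72 to 4.96 CPM in Pde2A-/- hearts against 2.0 to 3.0 CPM in Pde2A+/+ hearts, a log2 fold change of 0.79 (SE 0.13, adjusted p = 0.00171). Ccrl2, which binds chemerin and has been debated as a receptor for CC ligands, measured 4.07 to 7.11 CPM against 2.03 to 3.05 CPM, a log2 fold change of 1.22 (SE 0.16, adjusted p = 0.000386). For both receptors every Pde2A-/- heart was above every Pde2A+/+ heart.

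Ccr2, the receptor of the ligands that rose most, fell. It measured 1.51, 1.44, 1.43, 1.11 and 1.05 CPM in Pde2A-/- replicates A, D, 15, B and 14. In Pde2A+/+ replicates H, 7, E, 11, 6 and 8 it measured 5.89, 4.80, 3.89, 3.32, 2.85 and 1.65 CPM. The genotypes did not overlap, but the Pde2A+/+ hearts spread widely, and replicate 8, which had the highest Ccl2 and Ccl7 of its genotype, had the lowest Ccr2. In Ccr2 the log2 fold change was -1.51 (SE 0.27, adjusted p = 0.00377), and -1.43 without the Pde2A+/+ replicate 7. Within the number-named hearts Ccr2 missed the threshold, at -1.35 (adjusted p = 0.0588), and within the letter-named hearts it passed, at -1.85 (adjusted p = 0.0278). Ccr8, a receptor of T cell subsets, passed with 48 counts in all, 22 of them in Pde2A+/+ replicate 7 (log2 fold change -2.70, SE 0.81, adjusted p = 0.0418), and without that heart it did not (adjusted p = 0.0778). Ccr3, the receptor of Ccl24, had 57 counts over the 11 hearts and a log2 fold change of -0.73 (SE 0.47, adjusted p = 0.320).

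**Figure D4:**
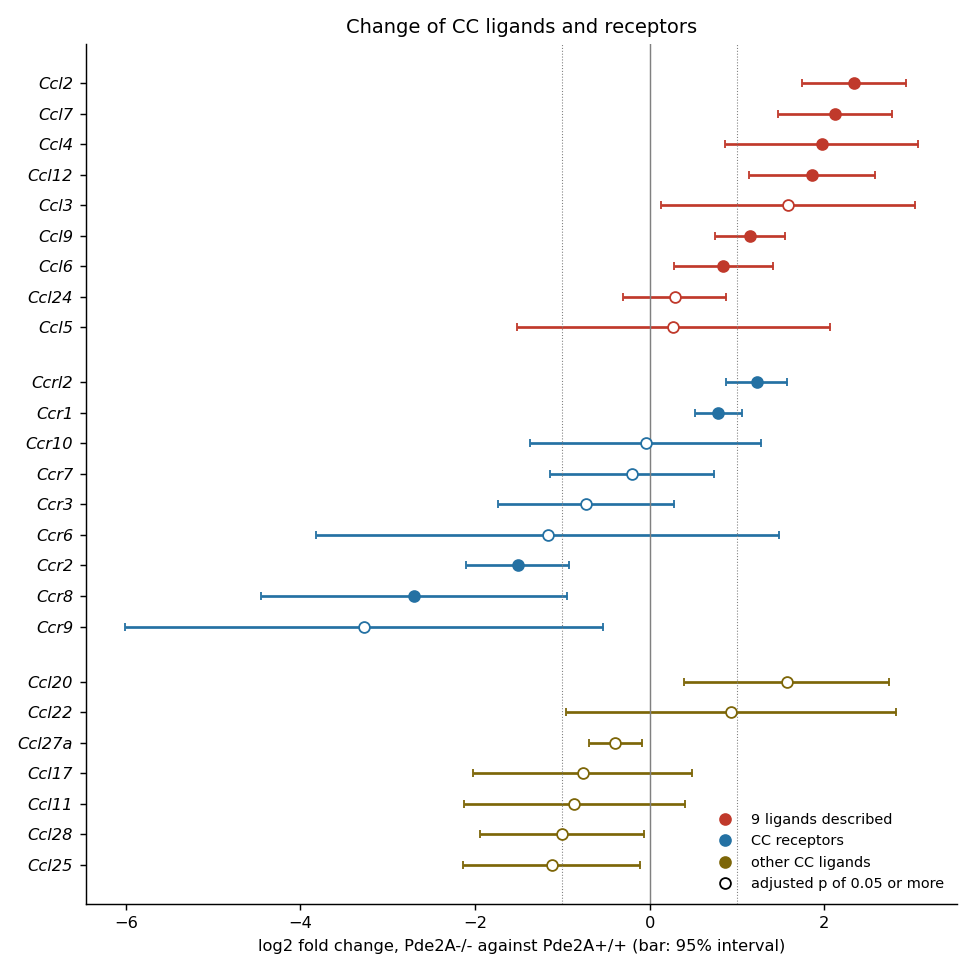
Log2 fold change of Pde2A-/- against Pde2A+/+ hearts with its 95% interval (x axis) for the 9 ligands, 9 CC receptors and the 7 other CC ligands that were tested; open points had an adjusted p of 0.05 or more and dotted lines mark a 2-fold change. All 9 ligands lie to the right of 0, Ccrl2 and Ccr1 as well, and Ccr2 lies at -1.51.

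Genes of proteins that bind or cleave chemokines without classical signalling also rose in part. Of 8 such genes, 3 rose and 0 fell at an adjusted p under 0.05, beside 8.93% of all genes higher and 5.67% lower. Ackr1, which binds CC and CXC chemokines on venular endothelium and red cells, measured 2.66 to 4.70 CPM in Pde2A-/- hearts and 0.301 to 0.696 CPM in Pde2A+/+ hearts, a log2 fold change of 2.71 (SE 0.23, adjusted p = 1.17e-05). Erythroid markers rose as well, 7 of 8, with a sum of 453 to 925 CPM in Pde2A-/- and 107 to 489 CPM in Pde2A+/+ hearts, and their part in Ackr1 was not tested. Ackr2, a scavenger of inflammatory CC chemokines, measured 1.91 to 7.05 CPM against 1.41 to 2.46 CPM, so that the ranges overlapped, with a log2 fold change of 1.32 (SE 0.28, adjusted p = 0.00957). Sdc4, a heparan sulfate proteoglycan, measured 52.8 to 102 CPM against 31.6 to 44.0 CPM, with a log2 fold change of 1.09 (SE 0.15, adjusted p = 0.000456). Ackr3, Ackr4, Sdc1, Dpp4 and Mmp12 did not pass.

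Among 13 other CC ligand genes, 7 were tested and 0 passed the adjusted p in edgeR, with 4 at an unadjusted p under 0.05, while DESeq2 passed 1, Ccl27a. Ccl25, a thymic attractant, measured 24.3 CPM in Pde2A+/+ replicate 7 and 2.81 to 5.54 CPM in the other hearts (log2 fold change -1.12, SE 0.47, adjusted p = 0.124). Ccl27a, which shares sequence with copies of itself and is therefore uncertain, measured 2.37 to 4.01 CPM in Pde2A-/- and 3.90 to 4.67 CPM in Pde2A+/+ hearts (log2 fold change -0.40, SE 0.14, adjusted p = 0.0745). Ccl11, between Ccl7 and Ccl12 on the chromosome, had 68 counts in all and a log2 fold change of -0.86 (SE 0.59, 95% interval -2.13 to 0.40, adjusted p = 0.352). Ccl1, Ccl19, Ccl21a, Ccl21b and Ccl26 had 0 counts in every heart, and Ccl8 had 1. Ccl19, Ccl21a and Ccl21b are annotated under more than 1 identifier each, and reads that match several copies may be in no count, so that their 0 is uncertain.

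Chemokine messages are known to be short-lived, through AU-rich elements that factors such as Zfp36 bind. The core letters ATTTA occurred in the 3′ UTR of 7 of the 9 genes, and at least 4 times in 4 of them, Ccl3, Ccl6, Ccl9 and Ccl12. Of 14340 genes with a 3′ UTR between 167 and 2465 bases, 63.6% held the letters and 18.0% held them at least 4 times. Ccl12 had 5 copies in 167 bases, which 0.486% of 1440 genes with a 3′ UTR within 20% of that length reached. Ccl3 had 5 in 409 bases, reached by 1.07% of 1874 such genes. Ccl6 had 4 in 943 bases, reached by 16.3% of 2540 such genes. Ccl9 had 5 in 2465 bases, reached by 45.3% of 2226 such genes. Ccl2 and Ccl7, which rose most, had 1 and 2 copies, and Ccl5 and Ccl24 had none. Of 6 genes for factors that act on such messages, 4 rose: Zfp36 (log2 fold change 0.75, SE 0.19, adjusted p = 0.0203), Zfp36l1 (0.56, SE 0.12, adjusted p = 0.0104), Zfp36l2 (0.23, SE 0.06, adjusted p = 0.0228) and Zc3h12a (0.68, SE 0.16, adjusted p = 0.0154). Elavl1 and Rc3h1 did not pass. Of all genes tested, 8.93% rose at an adjusted p under 0.05.

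Macrophage markers moved with the ligands. Of 16 markers, 13 rose and 0 fell, with a median log2 fold change of 0.96, and none was at 0 in all hearts. Of all genes tested, 8.93% rose and 5.67% fell at an adjusted p under 0.05. The summed level of the 16 markers was 341, 335, 322, 293 and 260 CPM in Pde2A-/- replicates 15, 14, D, B and A, and 136 to 207 CPM in the Pde2A+/+ hearts. The leading markers by adjusted p were Fcgr1 (log2 fold change 1.19, SE 0.13, adjusted p = 0.000102), C1qc (1.12, SE 0.13, adjusted p = 0.000133), Pf4 (1.24, SE 0.16, adjusted p = 0.000326) and C1qb (1.0, SE 0.14, adjusted p = 0.000460). The order of the Pde2A-/- hearts in this sum was not that of every ligand. Replicate A, lowest in the sum, was lowest in Ccl6, Ccl9 and Ccl12, but replicate B was lowest in Ccl2, Ccl7, Ccl3 and Ccl4. Replicate 14, next to the highest in the sum, was highest in Ccl2 and Ccl7, but only replicate A was below it in Ccl6 and Ccl9, and it was lowest in Ccl24. The part of the macrophage signal in the rise of the ligands was not tested.

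Part of a joint list of monocyte and neutrophil markers rose as well. Of 12 genes 11 were tested, 6 rose and 0 fell, beside 8.93% of all genes higher and 5.67% lower. The log2 fold change was above 0 in 9 of the 11. Chil3 had 8 counts in all, and none of the 12 was at 0 in every heart. The summed level of the markers tested was 61.7 CPM in Pde2A-/- replicate D and 24.2 to 38.9 CPM in the other Pde2A-/- hearts, against 2.51 to 10.3 CPM in 5 Pde2A+/+ hearts and 53.1 CPM in replicate 7. The 4 leading genes were S100a9 (log2 fold change 2.98, SE 0.48, adjusted p = 0.00171), S100a8 (2.72, SE 0.46, adjusted p = 0.00243), Elane (3.18, SE 0.54, adjusted p = 0.00248) and Mpo (2.65, SE 0.54, adjusted p = 0.00757). The classical monocyte gene Ly6c2 had 42 counts in all and did not pass (log2 fold change 1.26, SE 0.73, adjusted p = 0.270). The monocyte receptor gene Ccr2, which is not on this list, fell by a log2 fold change of -1.51. Whether the number of monocytes changed was not tested. Replicate D, highest in this sum, was the heart with 1.5 CPM of Ccl3 and 1.19 CPM of Ccl4, and it also had 44.2 CPM of liver markers. Pde2A+/+ replicate 7, at 53.1 CPM of these markers, had 0.0782 CPM of Ccl3 and 0.104 CPM of Ccl4. The part of these cells in the ligand levels was not tested.

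**Figure D5:**
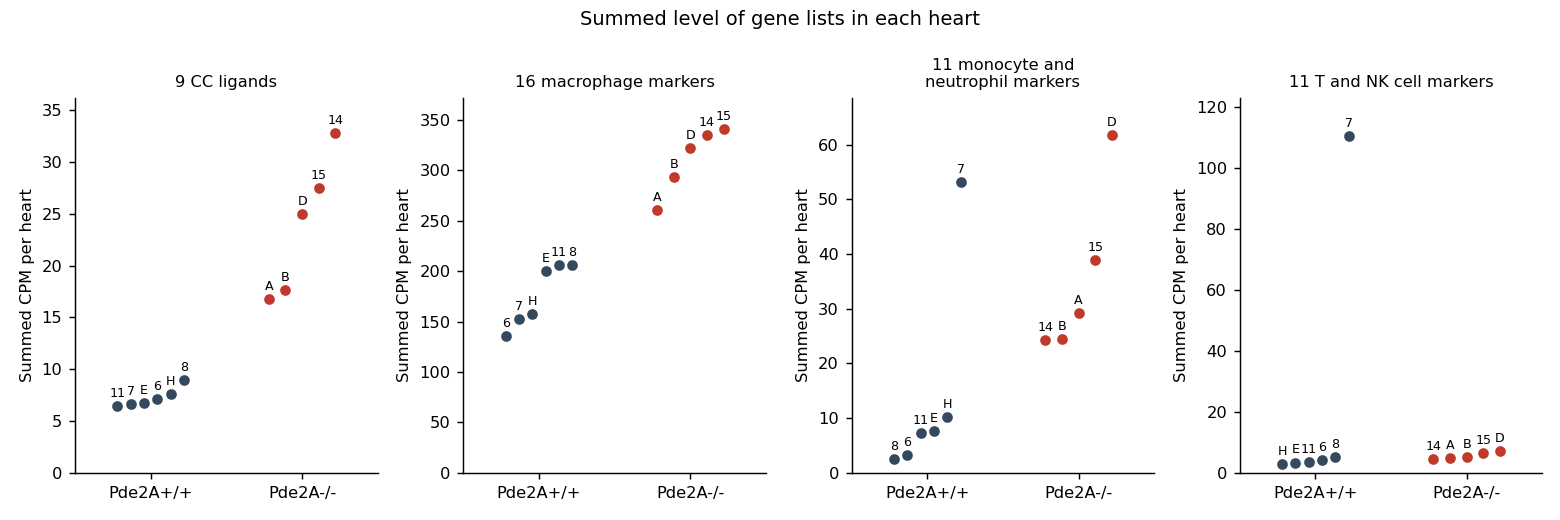
Summed CPM per heart (y axis, from 0) of the 9 ligands, 16 macrophage markers, 11 tested monocyte and neutrophil markers and 11 tested T and NK cell markers, with the replicate name at each point. The ligands and the macrophage markers do not overlap between genotypes, while Pde2A+/+ replicate 7 lies apart in the other panels.

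For the 4 ligands with a mean of at least 1 CPM, the genes most like them across hearts were taken by the same correlation around the genotype means, over 11 hearts and the 14024 genes whose mean reached 1 CPM, as a description. The highest of so many correlations over 11 hearts can be large without any link between the genes. Whether those listed exceed that was not tested. For Ccl6 these were the lysosomal protease gene Ctsb (r = 0.92), the interferon-induced gene Oas2 (r = 0.92) and the macrophage sialoadhesin gene Siglec1 (r = 0.89), all of which rose in Pde2A-/- hearts, with log2 fold changes of 0.34, 2.49 and 1.98. For Ccl9 they were Rab5b (r = 0.93), Sept4 (r = 0.92) and Tut7 (r = 0.91), of which Tut7 passed the test with a log2 fold change of 0.32. For Ccl2 they were Gm48529 (r = 0.93), Gm2546 (r = 0.92) and Ica1 (r = 0.91), and for Ccl7 they were Cenpa (r = 0.91), Ccl2 (r = 0.91) and Utp4 (r = 0.90). Apart from Ccl2 itself, none of those listed for Ccl2 and Ccl7 passed the test between genotypes. Spearman's rho was 0.80, 0.70 and 0.79 for Ctsb, Oas2 and Siglec1 with Ccl6. It was 0.71 to 0.96 for the genes listed with the other ligands.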

How the data were processed

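RNA was measured in 5 Pde2A-/- and 6 Pde2A+/+ hearts, grouped by the sample titles. The authors mapped single-end reads of stranded libraries with STAR to GRCm38 and deposited raw read counts per gene, 1 table per heart, with no normalization; the version of STAR is not given in the sources used here. The counts on the sense strand were used, 35865537 to 42835382 per heart, and lines for reads not on genes, 19.6% to 22.4% of reads, were left out. Reads on more than 1 gene are in no count. Gene names and lengths came from GENCODE M21, which held 55227 of 55487 identifiers.

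The 24177 genes whose counts over the 11 hearts summed to 10 or more were tested by the quasi-likelihood test of edgeR 4.0.16 (TMM, R 4.3.3) with Benjamini-Hochberg adjustment over all of them. Calls needed an adjusted p below 0.05 and a change of 2-fold or more. CPM relate counts to TMM-normalized library totals, and log2 CPM use a prior count of 2. On simulated data for this comparison with 23753 genes, 200 of 200 that were given a log2 change of 2 were recovered, with 1 wrong call. The changed genes were drawn only from those of higher counts, and all genes were given the same dispersion. Ccl3, Ccl4, Ccl5, Ccl12 and Ccl24 had fewer counts than the genes drawn from, so this recovery does not cover them. The biological coefficient of variation was 16.8%, so the spread between hearts and not depth limits all but the genes of few counts. No batch or litter is labelled, and the p-values measure the spread between hearts.

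The 9 genes, the lists and the tests were chosen with earlier results of these data known. Named genes were all 9 members, up to 4 genes per other list with the smallest adjusted p among those past it, receptors and other CC ligands with a mean of at least 1 CPM, and the 3 genes most correlated with each member of at least 1 CPM; Ccl1, Ccl8, Ccl11, Ccl19, Ccl21a, Ccl21b, Ccl26, Ccr3, Ccr8, Ly6c2, Chil3 and genes that did not pass were named after their values were seen. A few genes and a sequence are left out of the text but remain in the totals. Alternatives were DESeq2 1.42.0, its size factors, filterByExpr, no filter, reads of both strands, erythroid genes left out, naming style or Xist as a covariate, each naming style alone, a fold change of 1.5, the longest transcript as length and each heart left out. Sequences were compared with Biopython 1.88, from GENCODE M21 and RefSeq GRCm38.p6.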

Additional observations from a re-analysis of the deposited data

Results flagged for a closer look

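Ccl3 in Pde2A-/- replicate D, at 1.5 CPM from 54 counts, lay far above the nearest Pde2A-/- heart, at 0.413 CPM, a gap of 0.76 of the range of the 5 hearts, which is more than Dixon's criterion for 5 samples allows. It was the only such value in 18 groups examined, the 9 ligands in each genotype, and chance alone marks about 1 group in 20. The same heart had the highest Ccl4, at 1.19 CPM, the highest summed monocyte and neutrophil markers of all hearts, at 61.7 CPM, and 44.2 CPM of liver markers, and the part of these in the value was not tested.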

How the results depend on the processing

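No paired analysis was possible because no replicate name occurs in both genotypes. Ccl2, Ccl7, Ccl9 and Ccl12 kept their direction and passed the adjusted p in all 11 fits that left out 1 heart and with every other setting over all hearts; their log2 fold changes ranged, with hearts left out, from 2.05 to 2.50, 1.89 to 2.40, 1.07 to 1.29 and 1.72 to 2.04. Over the log2 fold changes of the 9 ligands and 5 receptors, 250 alternative values kept side and direction, 36 lost the threshold and 2 reversed, both of Ccl5: -0.73 within the letter-named hearts and -0.21 without Pde2A-/- replicate 15 (with hearts left out, -0.21 to 0.78). Ccl6 missed the threshold without a filter (adjusted p = 0.0533) and with the naming style as a covariate (adjusted p = 0.0634). Replicates are named by letters or numbers; the labels do not say why. Within the letter-named hearts, 3 against 2, 2 ligands were called and 2 passed the adjusted p, Ccl2 at a log2 fold change of 2.29 and Ccl7 at 2.15, with 1 receptor passing and 105 genes called higher and 11 lower; within the number-named hearts, 3 receptors and 1 other CC ligand passed and 136 genes were called lower. These fits use fewer hearts. Genes called lower, 90 in all, were 57 with DESeq2, 37 with filterByExpr, 215 at a fold change of 1.5 (981 higher) and 33 to 138 with hearts left out (higher, 535, 397 to 678); the cause was not tested. Other CC ligands passing were 1 with DESeq2 (Ccl27a), 1 with the naming style as a covariate (Ccl20) and 0 to 3 with hearts left out, 3 without Pde2A-/- replicate B (Ccl20, Ccl27a and Ccl28). With hearts left out, 4 to 6 ligands were called, 4 to 6 passed the adjusted p and 4 to 5 receptors passed. Ccl3, Ccl4, Ccl5 and Ccr8 were removed by filterByExpr and have no value there, and DESeq2 gave Ccl5 and Ccr8 no adjusted p. Depth limits Ccl5, Ccl3, Ccl4 and Ccl12, with 28 to 164 counts in all.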
